A study of Mus musculus with 3 samples.

Results

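The genes described here write, read or erase DNA methylation and Polycomb marks in chromatin, together with demethylases, deacetylases, chromatin remodellers, H3K9 methyltransferases and HMGA proteins that work beside them. The list of 44 genes was set by name and not by measured values, and 42 of them have a named probe on the array, out of 18951 genes named in all. Ezh1 and Hdac1 were not analysed here because no probe carries a transcript record of either gene. The study asks how closely fibroblasts turned towards thyroid cells resemble cultured thyroid cells, and holds 1 array of each of 3 cultures of ICR mouse cells. The 7-factor culture started as fibroblasts of E13.5 embryos that were infected with retroviruses carrying the reprogramming factors Oct3/4, Klf4, c-Myc and Sox2 and the thyroid factors Foxe1, Nkx2.1 and Pax8. The 8-factor culture received Hhex as well. Both were collected on day 21, after 2 weeks in medium with 1 U/mL thyroid stimulating hormone, 1 µg/mL potassium iodide and 10% serum. The primary culture was thyroid follicular cells of adult mice kept for 1 week in the same medium. All cultures thus share strain and last medium, and the factors were delivered by retroviruses to fibroblasts for which the labels name no sorting or clone. No array of uninfected fibroblasts was analysed here, so a difference from primary cells cannot be divided into what the factors did and what fibroblasts already had.

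DNA methylation is set on CpG sites by Dnmt3a and Dnmt3b, helped by the inactive relative Dnmt3l, and is copied after replication by Dnmt1 with its guide Uhrf1. Tet enzymes oxidise the methyl group and start its removal, and some Mbd proteins bind methylated DNA and bring repressors to it. Polycomb works through a pair of complexes: PRC2 (Ezh2 or Ezh1 with Eed and Suz12) methylates histone H3 at lysine 27, and PRC1 (Ring1 or Rnf2 with Bmi1 or a relative, a Cbx reader and a Phc protein) binds that mark and ubiquitinates histone H2A. Both systems hold developmental genes silent, and both are known barriers when cells of one type are pushed towards another.

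A gene's level is given as the log2 signal of its brightest probe minus the 75th percentile of that array, so that 0 is the level below which 75% of probes lie. The words higher and lower are used of differences of 2-fold or more, 1 on the log2 scale. Each group has 1 array, so no difference has a replicate check, no test was made, and the number of arrays limits the precision. The only error at hand is that of the scanner software for reading a spot, between 0.20 and 0.23 on the log2 scale for every difference of a listed gene from primary cells; it says nothing of the spread between cultures. All 42 genes were well above background on all 3 arrays and none was saturated, so every difference below is measured and none is a bound. Probes differ in brightness for reasons other than RNA amount, so levels are compared between arrays for a gene and never between genes.

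The arrays differed as wholes. Spots well above background made up 78.2% of the 7-factor and of the 8-factor array and 64.2% of the primary array, and the 75th percentile of the signal lay 4.34-fold and 5.03-fold above that of the primary array. The headers place both induced cultures on the same slide and scan and the primary culture on a slide and scan of its own, so slide and culture cannot be told apart. The cell types differed too. Of 10 thyroid follicular markers all 10 were lower in both induced cultures (summed linear level 1.89 and 2.36 against 523), and Iyd on both induced arrays, Slc5a5 on the 7-factor array and Pax8 on the 8-factor array did not stand well above background, so the label of thyroid-like cells is not borne out by these markers. Among the delivered thyroid factors, Nkx2-1 had levels of -6.38 and -5.74 and Pax8 of -6.85 and -7.28 in the 7-factor and 8-factor cultures, near the low end of these arrays. Foxe1, also delivered, had levels of 0.72 and 1.12, well above background on both, against 3.21 in the primary culture. Whether the probes lie in the part that the viruses carried is not known here. All 10 leukocyte markers were lower (0.373 and 0.444 against 100.4), as were 9 of 10 epithelial markers (158 and 122 against 518) and 6 of 6 markers of C cells and parathyroid (1.28 and 6.58 against 364, with Pth not well above background in either induced culture). Of 8 endothelial markers 5 and 7 were lower and 1 was higher (0.671 and 0.646 against 4.36). Fibroblast markers were higher in 9 and 8 of 10 (384 and 251 against 115). In such mixtures fewer cells of a type and less RNA per cell cannot be told apart. The part of these mixtures in the differences below was not tested.

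The promoters of 4 of the genes are shown because they stand for the contrast on which the results turn. Dnmt3b and Tet3 were higher, and Ring1 and Cbx7 lower, in both induced cultures, and each has a single RefSeq start site in the table used. Each line gives the 250 bases before that start site on the gene's own strand (RefSeq, GRCm38.p6), with every CG, the unit that DNA methyltransferases act on, in capitals.
Dnmt3b promoter, plus strand, chr2:153649199-153649448: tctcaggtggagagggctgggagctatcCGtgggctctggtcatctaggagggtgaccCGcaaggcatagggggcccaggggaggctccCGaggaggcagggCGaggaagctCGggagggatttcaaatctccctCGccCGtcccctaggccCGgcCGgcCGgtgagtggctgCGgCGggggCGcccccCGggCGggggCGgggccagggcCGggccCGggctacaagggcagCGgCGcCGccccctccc
Tet3 promoter, minus strand, chr6:83441679-83441928: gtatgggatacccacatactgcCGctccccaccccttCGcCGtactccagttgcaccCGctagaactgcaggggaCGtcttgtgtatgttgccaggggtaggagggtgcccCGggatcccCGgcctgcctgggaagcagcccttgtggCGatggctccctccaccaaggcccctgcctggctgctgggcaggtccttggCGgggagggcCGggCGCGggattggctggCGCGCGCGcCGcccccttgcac
Ring1 promoter, minus strand, chr17:34024681-34024930: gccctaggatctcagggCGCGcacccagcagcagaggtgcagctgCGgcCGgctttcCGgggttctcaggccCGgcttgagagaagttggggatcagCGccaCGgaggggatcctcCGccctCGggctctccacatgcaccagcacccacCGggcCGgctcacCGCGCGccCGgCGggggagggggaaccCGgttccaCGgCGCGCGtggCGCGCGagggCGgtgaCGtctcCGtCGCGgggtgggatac
Cbx7 promoter, minus strand, chr15:79932647-79932896: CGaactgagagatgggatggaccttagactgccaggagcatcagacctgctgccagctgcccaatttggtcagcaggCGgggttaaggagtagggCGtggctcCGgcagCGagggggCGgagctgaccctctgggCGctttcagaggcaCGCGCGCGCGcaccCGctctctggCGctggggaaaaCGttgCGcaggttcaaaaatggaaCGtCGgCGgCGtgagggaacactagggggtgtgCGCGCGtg
These windows hold 21, 17, 30 and 23 CG pairs in that order, so the promoters of the higher and of the lower genes are both dense in the sequence that the enzymes of this list modify. The comparison of promoters with all others of the same length is given after the expression values.

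Considered as a whole, the list was mixed. With 7 factors, 11 of the 42 genes (26.2%) were higher than in the primary culture and 6 (14.3%) lower, beside 19.1% higher and 27.1% lower among all 16152 genes compared and 19.1% and 28.8% among those well above background on both arrays. Genes of the same brightness are the closer standard: among the 4477 genes whose mean level lies between the quartiles of the listed genes' levels, 24.5% were higher and 16.6% lower. With 8 factors, 15 (35.7%) were higher and 6 (14.3%) lower, beside 17.8% and 27.5% of all 16160 genes compared, 17.6% and 29.4% of those well above background on both arrays, and 22.4% and 16.9% of the genes of like brightness. The median difference of the listed genes was 0.50 and 0.63, against -0.08 and -0.14 over genes well above background on both arrays. Over all genes compared it was 0 and 0, but there a bound that shows no difference counts as exactly 0. Scaling each array to its median in place of the 75th percentile gave 15 higher and 5 lower listed genes with 7 factors, beside 26.1% and 22.9% of all genes, and 19 higher and 4 lower with 8 factors, beside 22.8% and 24.1%. The 75th percentile over probes well above background on all arrays gave 10 higher and 6 lower with 8 factors, beside 16.8% and 28.3% of all genes, and quantile normalization 12 and 6, beside 19.1% and 25.8%. The 7-factor counts thus lie near those of genes of like brightness, and the 8-factor count of higher genes moves with the scaling, from 10 to 19, since 6 of the 15 pass the 2-fold line by less than 1 scanner error. The comparisons share the primary array, so they do not stand for each other. By gene, 10 were higher in both comparisons, 5 lower in both, 8 passed 2-fold in 1 of them, 19 in neither, and 0 were called in opposite directions.

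**Figure D1:**
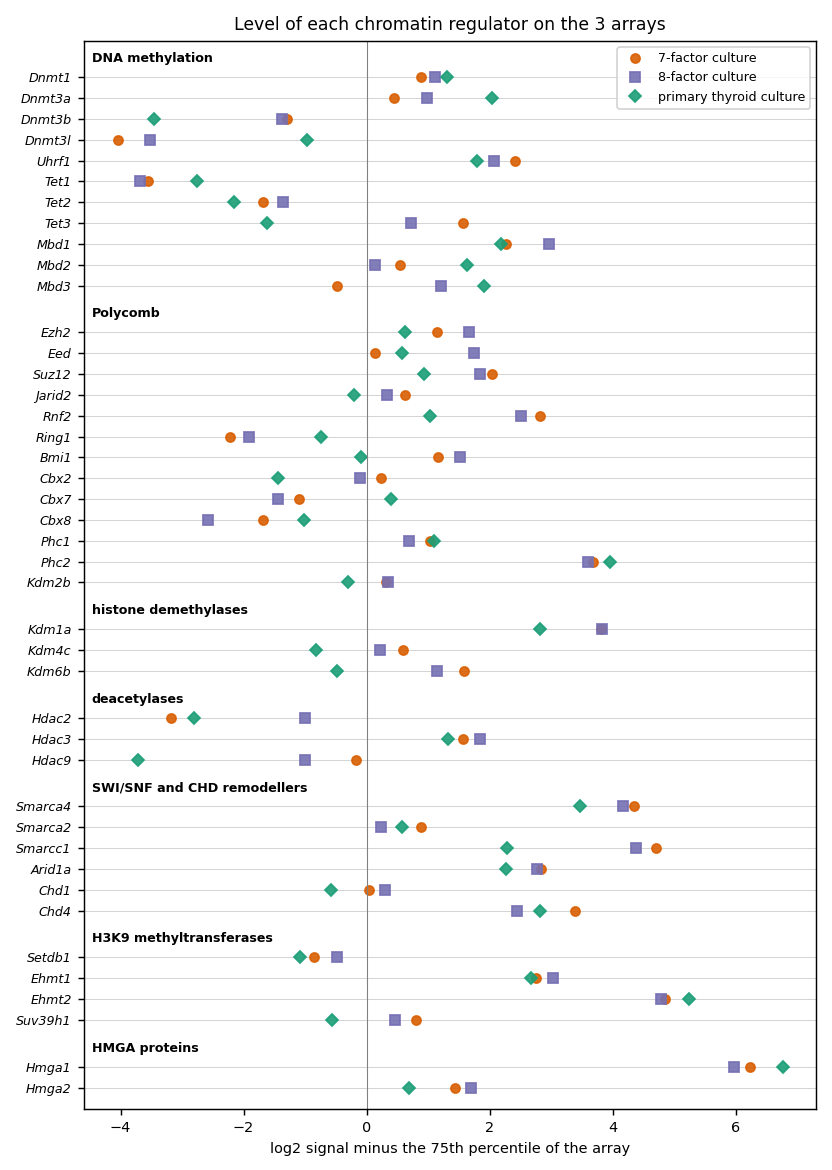
Level of the 42 chromatin regulators on each array, in log2 units from the array's 75th percentile (x axis), grouped by role, with 1 point per array. Tet3, Hdac9 and Smarcc1 lie far to the right of the primary point in both induced cultures and Dnmt3l far to the left; the places of different genes along the axis are not comparable.

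Among the enzymes that set DNA methylation, the de novo methyltransferases split. Dnmt3b, the form most tied to early embryos, had levels of -1.30 in the 7-factor, -1.38 in the 8-factor and -3.45 in the primary culture. The induced cultures lay 0.08 apart and both above primary cells, by 4.44-fold and 4.20-fold (differences 2.15 and 2.07, scanner error 0.23 in each). Normexp, another background correction, took these differences to 0.86 and 0.58 and so ended both calls. Dnmt3a, the form found more widely in differentiated cells, had levels of 0.44, 0.98 and 2.03. It was highest in primary cells and lower by 3.02-fold and 2.08-fold in the induced cultures (differences -1.59 and -1.05), the second short of 2-fold under 3 of the alternative settings, at -0.73 to -0.81. Its dimmer probes, annotated to another transcript record, differed by -1.21 and -0.25 in the 7-factor and by -0.83 and -0.45 in the 8-factor culture, each in the same direction but most of them under 2-fold. Dnmt3l, a partner of both enzymes that has no activity of its own, had levels of -4.05, -3.53 and -0.98. It was the lowest of the list relative to primary cells, by 8.40-fold and 5.86-fold (differences -3.07 and -2.55).

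Taken within an array, a difference between a pair of genes does not depend on a constant added to an array, though it does on the background correction. Dnmt3b differed from Dnmt3a by 3.74 in the 7-factor culture relative to primary cells, and by 3.13 in the 8-factor culture. Against Dnmt3l the same values were 5.22 and 4.62, with scanner errors of 0.31 in each case. These pairs and those below were chosen after their values were seen.

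The maintenance pair lay close to primary cells. Dnmt1, which copies methylation onto new strands, had levels of 0.88, 1.11 and 1.30, differences of -0.41 and -0.18. Uhrf1, which leads Dnmt1 to half-methylated sites, had levels of 2.40, 2.08 and 1.80, differences of 0.61 and 0.28, and its second probe gave 0.79 and 0.78. Neither gene reached 2-fold in either comparison.

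The Tet enzymes split as well. Tet3 had levels of 1.57 in the 7-factor, 0.73 in the 8-factor and -1.62 in the primary culture. Both induced cultures lay above primary cells, by 9.09-fold and 5.08-fold (differences 3.18 and 2.35, scanner error 0.21). A second probe of Tet3 was well above background on all arrays and differed by only 0.28 and 0.16, so the size of the difference rests on the brightest probe; the remaining probe fell short of that mark on the primary array. Tet1, known from stem cells, had levels of -3.55, -3.69 and -2.75, with the highest level in primary cells and differences of -0.80 and -0.93, short of 2-fold; under normexp these were -1.56 and -1.71, past it. Tet2 differed by 0.48 and 0.80 on one probe and by 1.36 and 0.79 on the other. Relative to Tet1, Tet3 differed by 3.99 and 3.28.

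Of the Mbd genes, Mbd2, a subunit of one form of the NuRD repressor complex, had levels of 0.54, 0.14 and 1.63. It was lower in both induced cultures, by 2.12-fold and 2.81-fold, the first falling to -0.78 under normexp and -0.79 under median scaling, short of 2-fold. Mbd3, its counterpart in the other form of NuRD, had levels of -0.48, 1.20 and 1.91. The 7-factor culture was 5.24-fold below primary cells, while the 8-factor culture differed by -0.71, so only the first passed 2-fold. Mbd1, which binds methylated DNA through its own domain, differed by 0.09 and 0.78 on its brightest probe and by -1.18 and -0.94 on its other probe, which leaves its direction undecided. In all, the DNA methylation group had 2 of 11 genes higher and 4 lower in the 7-factor culture and 2 higher and 3 lower in the 8-factor culture. These are 18.2% and 36.4%, then 18.2% and 27.3%, beside the 19.1% and 27.1%, and 17.8% and 27.5%, of all genes; those of like brightness had 24.5% and 16.6%, and 22.4% and 16.9%.

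**Figure D2:**
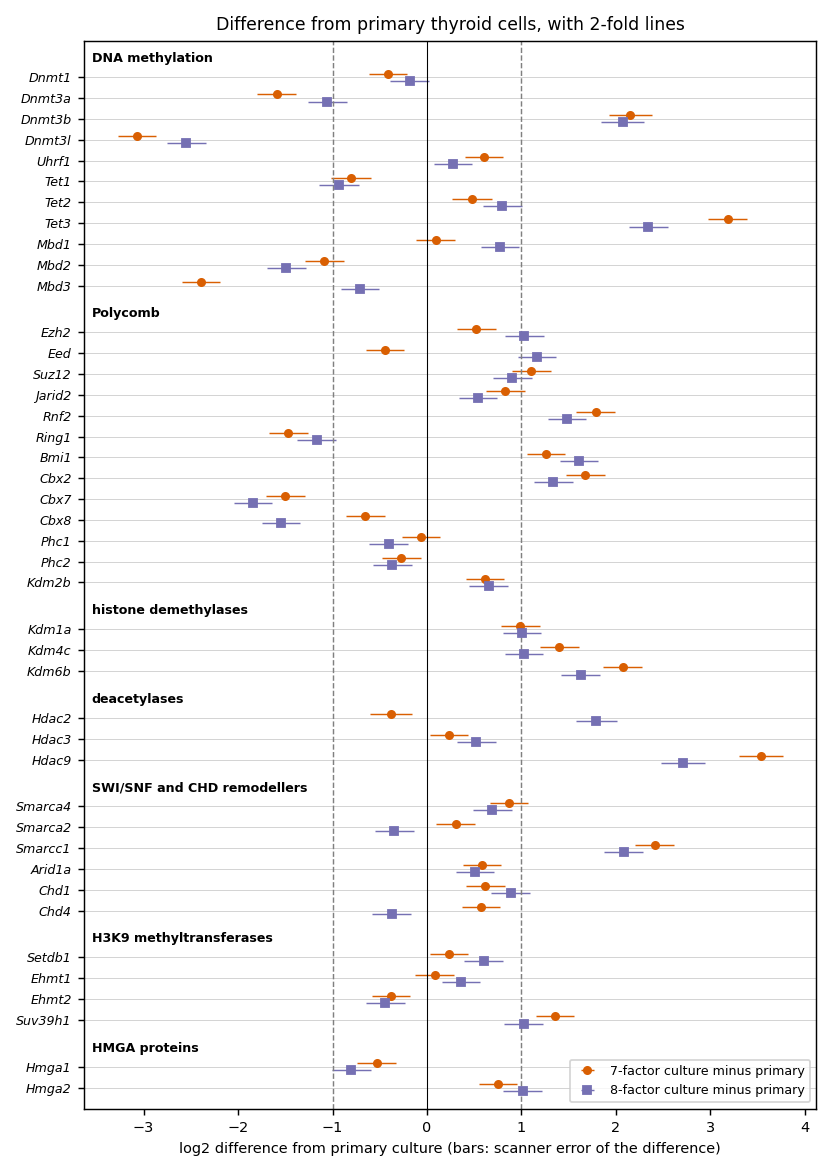
Log2 difference of each gene from the primary culture (x axis) in the 7-factor (circles) and 8-factor culture (squares), grouped by role, with bars for the scanner error and dashed lines at 2-fold. Some relatives fall on opposite sides of 0: Dnmt3b against Dnmt3a and Dnmt3l, Tet3 against Tet1, Rnf2 against Ring1, and Cbx2 against Cbx7 and Cbx8. Others do not: Phc1 and Phc2 both lie below 0, and Smarca4 and Smarca2 both lie above it in the 7-factor culture.

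Polycomb genes had 4 of 13 higher and 2 lower in the 7-factor culture, and 5 higher and 3 lower in the 8-factor culture. These shares, 30.8% and 15.4%, then 38.5% and 23.1%, stand beside 24.5% and 16.6%, and 22.4% and 16.9%, of genes of like brightness, and in 13 genes 1 gene moves a share by 7.69 points. In PRC2, Ezh2, the H3K27 methyltransferase, had levels of 1.15, 1.66 and 0.63; its differences of 0.52 and 1.03 put the 8-factor culture just past 2-fold (2.05-fold), and just short of it under quantile normalization. Suz12, which holds the complex together, had levels of 2.04, 1.84 and 0.93 and differences of 1.11 and 0.91, and its second probe gave 1.21 and 0.75. Both probes thus placed the induced cultures above primary cells, past 2-fold in the 7-factor culture alone. Eed, the subunit that reads the finished mark, had levels of 0.13, 1.73 and 0.57. It stood below primary cells in the 7-factor culture, by 1.36-fold, and 2.24-fold above them in the 8-factor culture. Jarid2, which guides PRC2 to its sites, differed by 0.83 and 0.54, with 0.97 and 0.72 on its second probe, short of 2-fold throughout.

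In PRC1 the catalytic relatives were split. Rnf2 (also called Ring1B), the main H2A ubiquitin ligase, had levels of 2.81, 2.50 and 1.02 and was 3.45-fold and 2.80-fold higher in the induced cultures. Its second probe gave differences of 1.53 and 1.81, also past 2-fold. Ring1 (Ring1A), its relative in the same position of the complex, had levels of -2.22, -1.92 and -0.75 and was 2.77-fold and 2.25-fold lower. The second probe of Ring1 gave -2.14 and -1.71. For this pair all probes of a gene had the same sign and passed 2-fold in both cultures, although Ring1 in the 8-factor culture came to -0.93 under median scaling. The difference of Rnf2 relative to Ring1 was 3.26 in the 7-factor and 2.65 in the 8-factor culture.

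Bmi1, the partner of the ligase in canonical PRC1 and a known repressor of the Cdkn2a locus, had levels of 1.16, 1.51 and -0.10. It was 2.40-fold and 3.05-fold higher, and its second probe gave 0.55 and 2.01; the mean of both in the 7-factor culture was 0.91, short of 2-fold. Among the Cbx readers, which bind methylated H3K27, Cbx2 had levels of 0.23, -0.11 and -1.45 and was 3.20-fold and 2.53-fold higher. Its dimmer probe fell short of the background mark on the primary array and is not compared; averaged with the brighter one it gave differences of 0.02 and -0.04 and ended both calls. Cbx7, the main Cbx reader of embryonic stem cells, had levels of -1.10, -1.45 and 0.40 and was 2.83-fold and 3.59-fold lower. Cbx8 had levels of -1.68, -2.57 and -1.03, differences of -0.65 and -1.55, and was lower past 2-fold in the 8-factor culture alone (2.92-fold). Relative to Cbx7, Cbx2 differed by 3.18 in both comparisons, and relative to Cbx8 by 2.33 and 2.88.

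The scaffold proteins of PRC1 differed less on their brightest probes. Phc1 differed by -0.06 and -0.41, but its other probes disagreed, with 0.63 and -2.12 in the 7-factor culture and 0.80 and -1.43 in the 8-factor culture. Phc2 had levels of 3.68, 3.59 and 3.95 and differences of -0.27 and -0.37. Kdm2b, which brings a variant PRC1 to unmethylated CpG islands, had levels of 0.31, 0.34 and -0.31 and differences of 0.62 and 0.65. None of these genes passed 2-fold by the probe that stands for the gene.

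All 3 histone demethylases of the list lay above primary cells in both cultures. Kdm6b, which removes the Polycomb mark from H3K27, had levels of 1.58, 1.14 and -0.49 and was 4.20-fold and 3.09-fold higher. Kdm4c, which acts on H3K9, had levels of 0.58, 0.21 and -0.82 and was 2.64-fold and 2.04-fold higher, though its second probe differed by 1.05 and -0.02, and the mean of both by 0.50 in the 8-factor culture. Kdm1a (LSD1), which acts on H3K4, had levels of 3.81, 3.83 and 2.82. Its differences of 0.99 and 1.01 fall on either side of the 2-fold line but are 0.02 apart.

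Among the deacetylases Hdac9, a class IIa enzyme, had the largest difference above primary cells on the brightest probes, a rank that passed to Tet3 under normexp (7-factor, Hdac9 at 1.95) and in the mean over all probes (1.72 against 1.26). Its levels were -0.18 in the 7-factor, -1.0 in the 8-factor and -3.72 in the primary culture, 11.6-fold and 6.56-fold higher. A second probe annotated to the same gene gave 1.54 and 0.61, so the direction was shared and the size was not; the mean over all probes was 0.41 in the 8-factor culture, short of 2-fold. Hdac2, a class I enzyme of the NuRD and Sin3 complexes, had levels of -3.18, -1.01 and -2.80; it was 3.47-fold above primary cells in the 8-factor culture and differed by -0.38 in the 7-factor culture. Under normexp these became 0.52, which ended the call, and -1.09, which made it lower in the 7-factor culture. Hdac3, the enzyme of the NCoR complex, differed by 0.23 and 0.52.

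Among the remodellers, Smarcc1 (BAF155), a core subunit of SWI/SNF, had levels of 4.69, 4.37 and 2.28 and was 5.32-fold and 4.24-fold higher. Its much dimmer second probe gave -0.64 and -0.32, against the brighter one, and the mean of both, 0.89 and 0.88, ended both calls. Smarca4 (BRG1), an ATPase of the complex, had levels of 4.34, 4.16 and 3.47 and differences of 0.87 and 0.69; it passed 2-fold in the 7-factor culture under normexp (1.09) and median scaling (1.17), while a probe of similar brightness gave -0.13 and 0.16, and the dimmest gave -1.65 and -1.16. Smarca2 (BRM), the alternative ATPase, differed by 0.30 and -0.35. Its second probe, annotated to another transcript record, gave 1.096 and 0.966, above primary cells in both cultures. Arid1a differed by 0.58 and 0.51 and Chd1, a remodeller of active genes, by 0.62 and 0.89, with 1.89 and 1.35 on one further probe and 1.65 and 0.94 on the other; the mean over its probes, 1.39 and 1.06, and normexp, 1.61 and 1.19, put it past 2-fold. Chd4, the ATPase of NuRD, had levels of 3.38, 2.43 and 2.81 and differences of 0.57 and -0.37, and its further probes gave 0.20 and -1.68 in the 7-factor culture and -0.02 and -1.33 in the 8-factor culture.

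Of the H3K9 methyltransferases, which mark silent heterochromatin and euchromatic repressed genes, only Suv39h1 passed 2-fold in either comparison. It had levels of 0.80, 0.47 and -0.56 and was 2.56-fold and 2.03-fold higher, the second short of 2-fold under normexp (0.83). Setdb1 differed by 0.23 and 0.60, Ehmt1 (GLP) by 0.08 and 0.36, and its partner Ehmt2 (G9a) by -0.38 and -0.44. The HMGA proteins, which bend AT-rich DNA and are abundant in embryonic cells, went apart in sign. Hmga2 had levels of 1.44, 1.70 and 0.69 and differences of 0.75 and 1.01, the second just past 2-fold and short of it under 4 of the alternatives (0.57 to 0.97), while its dimmer probe gave -1.20 and 0.13. Hmga1 had levels of 6.23, 5.96 and 6.76 and differences of -0.53 and -0.80. Relative to Hmga1, Hmga2 differed by 1.29 and 1.81.

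**Figure D3:**
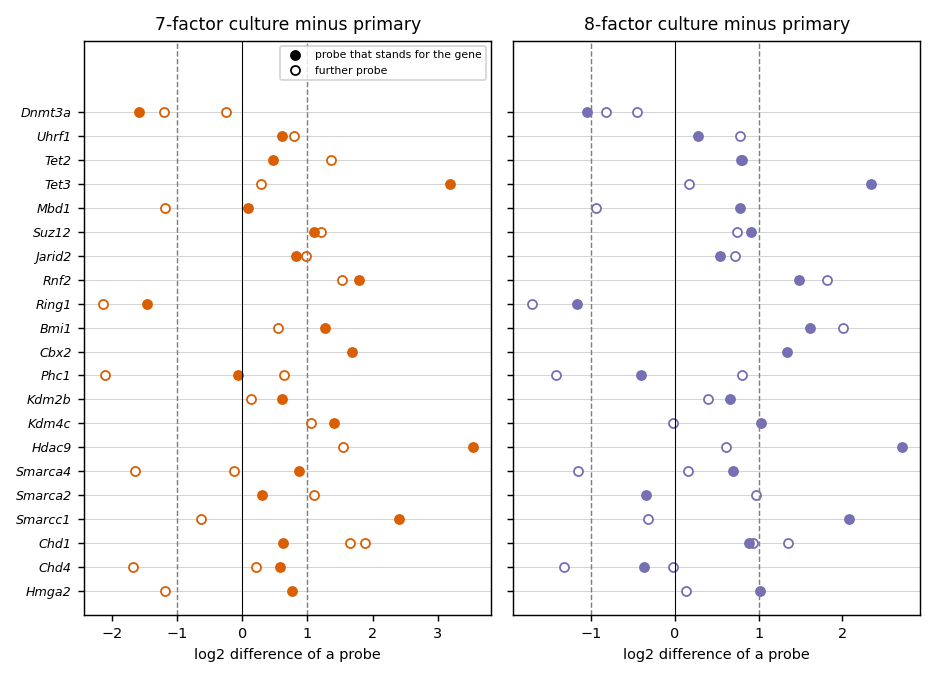
Log2 difference from the primary culture (x axis) for every measured probe of the 21 genes with several probes, in the 7-factor (left) and 8-factor culture (right); filled points are the probe that stands for the gene, open points further probes well above background on both arrays. The probes of Rnf2 and Ring1 lie together, while those of Tet3, Hdac9, Smarcc1, Smarca4, Phc1 and Chd4 lie far apart.

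Of the genes, 21 rest on 1 probe and 21 on several, and where more were measured they often disagreed. Of 25 further probes of 20 genes, 18 had the sign of the brightest probe in the 7-factor and 19 in the 8-factor comparison. For genes called higher or lower, 9 of 10 further probes had the same sign in the 7-factor comparison and 6 of these also passed 2-fold. In the 8-factor comparison 8 of 10 had the same sign and 3 passed 2-fold. Signs were thus shared between probes more often than sizes.

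The comparison of the 8-factor with the 7-factor culture asks what came with the addition of Hhex, and both arrays lay on the same slide. The arrays were still not alike: the spike-in control probes had a geometric mean signal of 1340 on the 7-factor and 766 on the 8-factor array. The part of this in the differences was not tested. Among all 16262 genes compared, 4.54% were higher and 4.04% lower in the 8-factor culture. The shares were 4.19% and 3.73% among genes well above background on both arrays and 2.79% and 2.93% among genes of like brightness. Of the 42 listed genes 3 were higher (7.14%) and 0 lower, with a median of -0.09 against -0.09 over all genes. The higher genes were Hdac2 (levels -1.01 against -3.18, 4.51-fold), Mbd3 (1.20 against -0.48, 3.21-fold) and Eed (1.73 against 0.13, 3.05-fold), each read by 1 probe. Hdac2 and Mbd3 are both known subunits of NuRD, whereas Chd4, the ATPase of that complex, differed by -0.95 and Mbd2 by -0.40. Eed differed from its PRC2 partners, of which Ezh2 differed by 0.51 and Suz12 by -0.20. Under normexp Hdac2 differed by 1.61 and kept its call. The other genes stayed within 2-fold, and the nearest to the line were Chd4, Cbx8 (-0.89), Tet3 (-0.84) and Hdac9 (-0.83), all 4 with the lower level in the 8-factor culture; Chd4 passed the line under normexp (-1.12) and, barely, under median scaling.

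**Figure D4:**
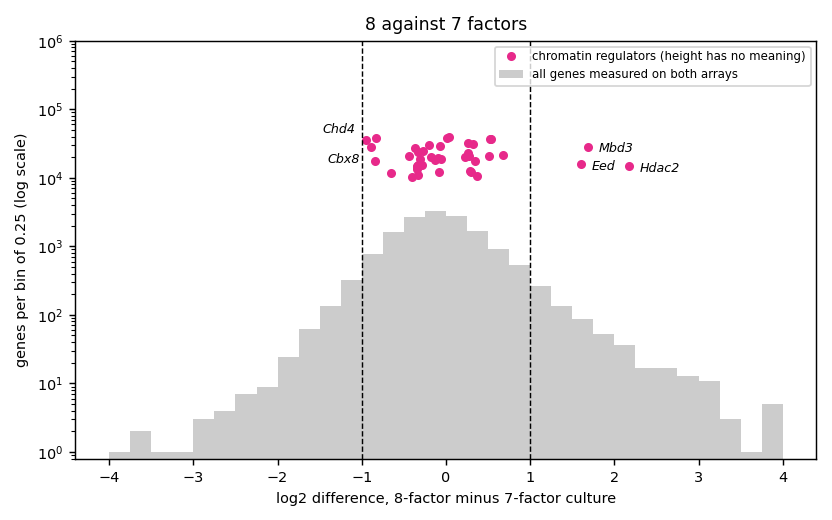
Log2 difference of the 8-factor minus the 7-factor culture (x axis) for all genes measured on both arrays (grey bars, genes per bin on a log scale) and for the 42 chromatin regulators (points, whose height has no meaning), with dashed lines at 2-fold. Hdac2, Mbd3 and Eed lie to the right of the upper line and no point lies to the left of the lower line.

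Other genes of the same pathways were counted from lists set by function, to be read beside 19.1% higher and 27.1% lower of all genes in the 7-factor and 17.8% and 27.5% in the 8-factor comparison. Each list is small, and its counts are a description. Among 21 and 22 other genes of DNA methylation compared, 5 were higher and 1 lower in the 7-factor culture (23.8% and 4.76%), 6 higher and 2 lower in the 8-factor culture (27.3% and 9.09%). The higher ones included Uhrf2, a relative of Uhrf1 (4.26-fold and 3.12-fold), Zfp57, which protects methylation of imprinted regions (3.38-fold and 4.77-fold), and the CXXC-domain protein Cxxc4, whose differences are bounds of at least 3.40 and at least 3.57 on the log2 scale because the primary array showed no signal well above background. Zbtb38, a reader of methylated DNA, was lower, with differences of -1.56 and -1.58. Hells, a remodeller needed for methylation of repeats, was 2.07-fold and 3.05-fold higher.

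Of 24 other Polycomb genes compared, 2 were higher and 4 lower in the 7-factor culture (8.33% and 16.7%) and 4 higher and 6 lower in the 8-factor culture (16.7% higher). Bcor, of the variant PRC1 that also holds Kdm2b, was 4.32-fold and 4.41-fold higher. Scmh1, a PRC1-associated protein, was 7.89-fold and 3.78-fold lower, L3mbtl2, of another variant PRC1, 6.10-fold and 3.11-fold lower, and Phf19, a PRC2 accessory factor, 4.65-fold and 3.78-fold lower. Trithorax genes, which oppose Polycomb by methylating H3K4, numbered 5 higher and 1 lower of 16 in the 7-factor culture (31.2% and 6.25%) and 2 higher and 0 lower in the 8-factor culture (12.5% higher). Psip1, which tethers a Trithorax complex to chromatin, was 4.52-fold and 7.34-fold higher and Setd1b, an H3K4 methyltransferase, 3.24-fold and 3.30-fold higher. Ash1l, an H3K36 methyltransferase, was 3.15-fold higher in the 7-factor culture and differed by 0.93 in the 8-factor culture.

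Other histone demethylases were higher in 8 of 16 cases and lower in 2 in the 7-factor culture (12.5% lower), and higher in 7 and lower in 1 in the 8-factor culture (43.8% and 6.25%), with medians of 1.01 and 0.86. Kdm3a, which acts on H3K9, was 5.39-fold and 5.79-fold higher, Kdm5b, which acts on H3K4, 4.49-fold and 3.23-fold, and Kdm2a, which acts on H3K36 at CpG islands, 4.67-fold and 2.89-fold. The other deacetylases and corepressors had 3 of 23 genes higher and 5 lower in each culture (13.0% and 21.7%), both below the shares of all genes. Among genes with the brightness of the main list, 24.5% and 22.4% were higher and 16.6% and 16.9% lower. The NuRD subunits differed within the deacetylase and corepressor list: Mta1 was 2.86-fold and 2.40-fold higher, Gatad2b 3.80-fold and 2.19-fold higher, and Mta3 was lower, with differences of -1.59 and -1.58. The other remodellers had 8 of 27 higher and 6 lower (29.6% and 22.2%), then 7 higher and 2 lower (25.9% and 7.41%), among them Smarce1 (2.99-fold and 2.87-fold higher) and Smarcd2 (3.28-fold and 2.76-fold lower), both SWI/SNF subunits. Other H3K9 genes had 4 of 10 higher and 1 lower (40.0% and 10.0%), then 2 higher and 0 lower (20.0% higher), with Atrx, a remodeller of heterochromatin, 2.29-fold and 3.45-fold higher.

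Replication and mitosis genes are set beside these because Dnmt1, Uhrf1, Ezh2 and Suv39h1 are known to be expressed most in dividing cells. Of 23 compared, 9 were higher and 1 lower in the 7-factor culture and 11 higher and 0 lower in the 8-factor culture (39.1% and 47.8% higher), with medians of 0.73 and 0.82. Mki67, a mark of dividing cells, was 3.21-fold and 3.35-fold higher and the mitotic kinase Bub1 3.63-fold and 4.50-fold higher. Of the 4 regulators named, Suv39h1 was higher in both cultures, Ezh2 in the 8-factor culture alone and Dnmt1 and Uhrf1 in neither. The part of cell division in their levels was not tested. Cdkn2a, a classical target of Bmi1 and of other Polycomb proteins, had levels of 0.23 and 0.33 in the induced and -2.95 in the primary culture. It was 9.04-fold and 9.69-fold higher, in cultures where Bmi1 was higher as well, while its neighbour Cdkn2b differed by -0.27 and 0.09.

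**Figure D5:**
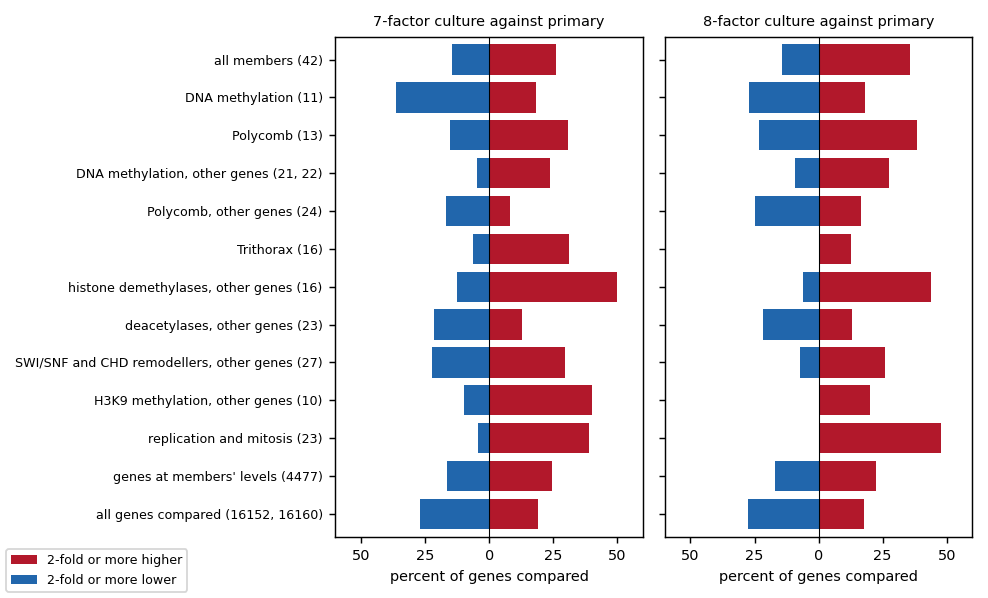
Percent of genes 2-fold or more higher (red, to the right) or lower (blue, to the left) than in the primary culture for the listed genes, for the lists of 10 or more genes, for genes of like brightness and for all genes compared, in the 7-factor (left) and 8-factor culture (right). The number of genes compared stands in parentheses, 1 number for each culture where they differ. The longest red bar is that of the other histone demethylases in the 7-factor panel and of the replication and mitosis genes in the 8-factor panel.

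Promoter sequence was the property examined that the choice of genes did not use directly. RefSeq start sites were found for 36 of the 42 genes, with 56 windows of 250 bases before a start site. They held a median of 21 CG pairs, against 6 over all 32851 windows of the table, and a median GC content of 66.8% against 52.4%. The box GGGCGG, bound by Sp1-like factors, was present on either strand in 75.0% of their windows and 32.7% of all windows. CCAAT was present in 33.9% and 33.8%, and TATAAA in 5.36% and 12.4%. The E2F site letters TTTGGCGC or TTTCCCGC, searched on both strands, were found in 3.57% and 1.30%, in windows of Arid1a and Suz12. The palindromic site of NRF1 was found in 0 of the 56 windows and 0.782% of all. None of these motifs contains another. A match describes these letters in this window and shows no binding.

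Dense and sparse windows occurred on both sides of the expression difference. The Dnmt3a windows held 15 to 40 CG pairs and Ring1 30, both lower genes, while the windows of Rnf2, Bmi1, Smarcc1 and Tet3, all higher, held 20, 21, 21 and 17. Genes with sparse windows alone included Hdac9, higher in both cultures, with 2 and 0 CG pairs, and Dnmt3l, lower in both, with 3 to 5; Kdm4c, higher in both, had one window with 0 and another with 19. These windows show what the sequence offers to methylation; methylation itself was not measured.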

How the data were processed

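RNA of 3 cultures was labelled with Cy3 and read on 1 Agilent one-colour array each, per the labels' protocols. The scanner software (Feature Extraction 11.5.1.1 in the headers, 10.5 in the submitters' processing notes) removed background and spatial trends, and the processed intensity of each spot was deposited without scaling between arrays. Control and outlier spots were left out, copies of a probe averaged, and log2 signals of 41171 probes centred on the 75th percentile of each array (Python 3.11.15, pandas 2.3.3). The authors' value table, with the same intensity values, gave the same counts. Probes were named through their RefSeq accession in a table of GRCm38.p6, used for names and promoter sequence (the array grid is mm9 per the file headers); 27815 probes (67.6%) received a gene. The brightest probe by mean level over the 3 arrays stood for a gene. A gene not well above background on 1 of the arrays compared gives a bound. Calls need a 2-fold difference. Alternatives were normexp correction with an offset of 50 (limma 3.58.1, R 4.3.3), other scalings, all probes of a gene and other filters. Every listed gene is given with its values; of the other lists up to 4 genes with the largest mean difference from primary cells could be named, and Hells was added after its values were seen. The genes and lists were chosen with earlier results of these data known. The calling was tried on simulated data whose differences lay well past 2-fold, so calls near the 2-fold line were not tested by it.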

Additional observations from a re-analysis of the deposited data

Results flagged for a closer look

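By the probe that stands for each gene, the induced cultures lay on opposite sides of the primary culture in 4 genes. This difference was not tested because each group has 1 array. Hdac2 differed between the 8-factor and the 7-factor culture by 2.17 on the log2 scale, with differences from primary cells of 1.79 and -0.38 (0.52 and -1.09 under normexp, which ended the first call). Eed differed by 1.61 between the same cultures, with 1.16 and -0.44. Under median scaling the 7-factor differences from primary cells were -0.08 for Hdac2 and -0.14 for Eed. Both are smaller than the scanner errors of 0.22 and 0.20, so the side of primary cells was not clear there. Chd4 went the other way, by -0.95, with -0.37 and 0.57, and one of its further probes gave 0.36 in place of -0.95. That probe placed both cultures below primary cells, at -1.33 and -1.68, and the remaining probe gave -0.02 and 0.20. The opposite sides of Chd4 thus rest on its brightest probe. Smarca2 differed by -0.65, with -0.35 and 0.30. Its second probe, annotated to another transcript record, differed by -0.13, with 0.966 and 1.096. That probe placed both induced cultures above primary cells, so the opposite sides of Smarca2 rest on its brightest probe. Median scaling, which raised every 8-factor difference from primary cells, left the sides of Chd4 and Smarca2 unclear as well. Hdac2 and Eed have 1 probe each.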

How the results depend on the processing

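Calls were recomputed under 8 alternatives, of which 3 (the deposited value table and both filters on dim probes) could not change a listed gene, so stability rests on the other 5. Of these, the mean over all probes could not change the 21 genes with 1 probe, among them Kdm6b, Cbx7, Dnmt3l, Hdac2, Mbd3 and Eed. Of the calls made, 7 of 11 higher and 5 of 6 lower genes kept theirs under all 8 in the 7-factor comparison, 5 of 15 and 4 of 6 in the 8-factor comparison, and Hdac2, Mbd3 and Eed in the comparison of the induced cultures. Tet3, Rnf2 and Kdm6b among the higher, and Cbx7 and Dnmt3l among the lower genes, kept their call under all 8 in both comparisons with primary cells. Scaling to the median raised the median difference of the listed genes to 0.80 (7-factor) and 0.87 (8-factor), with 15 higher and 5 lower, and 19 higher and 4 lower, because it adds a constant to each array. Over all genes the share of higher among calls rose from 41.3% to 53.3% and the median by 0.12 in the 7-factor comparison. That median includes bounds held at 0, so it need not move by the whole constant. The mean over all probes of a gene lowered the 7-factor median to 0.16 and turned Cbx2 in the 8-factor comparison to -0.044, through its dim probe. Normexp correction and median scaling each gave 1 lower gene between the induced cultures in place of 0. Under normexp the dim genes Dnmt3b and Hdac2 lost calls and Tet1 passed 2-fold, with the values given beside them; the cause was not tested. The array files hold no mean spot signal, so normexp used the median, and no column of gene names, so naming by it was not run. No paired analysis was possible because each group has 1 array.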

Other observations

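HMG proteins beyond the HMGA pair, which open chromatin or bend DNA, had 2 of 7 genes higher and 1 lower in each induced culture (28.6% and 14.3%). Among all genes compared, 19.1% were higher and 27.1% lower in the 7-factor and 17.8% and 27.5% in the 8-factor comparison. Hmgn3 was 2.69-fold and 2.66-fold and Hmgn5 2.63-fold and 2.87-fold higher, both nucleosome-binding proteins. Hmgb1, an abundant DNA-bending protein, had levels of 5.01, 4.23 and 6.23 and was 2.32-fold and 4.00-fold lower. Between the induced cultures 7 of the 171 genes with a probe in the other pathway lists passed 2-fold, 5 higher and 2 lower in the 8-factor culture. Among all genes compared, 4.54% were higher and 4.04% lower. All 7 are named, those outside the naming rule after their values were seen. The higher ones were Brd9 (1.58 on the log2 scale), Ahcy (1.24), Phf10 (1.08), Scmh1 (1.06) and Pcgf3 (1.04), and the lower ones Actl6b (-1.60) and Cbx5, the heterochromatin reader HP1-alpha (-1.18). The cell cycle inhibitor Cdkn1a, a target of p53, was 3.89-fold and 2.64-fold higher than in primary cells.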
